A study of Mus musculus with 26 samples.

Results

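The data described here are the RNA-seq counts of a single mouse line, as embryonic stem cells (ESCs) and after differentiation to neural progenitors (NPCs). In this line the zinc finger protein CTCF was replaced by CTCF with a deletion in its first zinc finger (ΔZF1). The 4 libraries were taken by cell line and cell type from the labels, 2 of ESC-ΔZF1 and 2 of NPC-ΔZF1, of the 26 samples of the series. Both cell types come from the same line, so the comparison of NPCs with ESCs is not touched by differences in gene dosage between lines. All 16641 genes with enough counts were compared.

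The line was made from E14 mouse ESCs. Endogenous CTCF carries a degron, the mAID-eGFP tag, which lets the F-box protein OsTIR1(F74G), expressed from Rosa26, mark CTCF for destruction when the auxin analog 5-Ph-IAA is added. Flag-Halo-tagged CTCF-ΔZF1 is expressed from the Tigre locus under a promoter that responds to doxycycline, and the Mnx1 (Hb9) gene carries an mCherry reporter. The line is 1 clone. All rescue libraries, those of the line with CTCF-WT in place of CTCF-ΔZF1 included (2 of ESC-WT and 2 of NPC-WT, also 1 clone), come from cells given 1 µM 5-Ph-IAA and 1 µg/ml doxycycline for 24 hours, so there is no untreated control among them. ESCs were grown with LIF and inhibitors of MEK and GSK3. NPCs were grown for 2 days on laminin in N2B27 medium. Parental E14 cells, with neither degron nor rescue and with no treatment in the labels, gave 3 ESC and 3 NPC libraries in another table. The replicates are separate biological samples according to the study.

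CTCF binds DNA through an array of zinc fingers and holds cohesin at the anchors of chromatin loops, and its ZF1 is one of the fingers that bind RNA. ESCs in LIF and the 2 inhibitors are in the naive state of pluripotency, kept by a network of factors around Nanog, Pou5f1 (Oct4) and Sox2. When LIF and the inhibitors are withdrawn this network is switched off, and cells pass through a formative state, marked by Fgf5, Otx2 and Pou3f1, on the way to neural cells, which first turn on Sox1 and Pax6. Other fates that ESCs can take are marked by Gata4, Gata6 and Sox17 (extraembryonic endoderm), by keratins and Grhl factors (surface ectoderm) and by T and Mixl1 (primitive streak).

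The degron and the deletion in ZF1 concern 2 stretches of Ctcf on chromosome 8, both shown here because they define the line. The first is the start of the coding sequence in exon 3 (chr8:105663763-105663793, GRCm38, plus strand), in which the capitals mark the target of the guide that was used to insert the tag. The 3 bases after the guide target are the PAM. The second runs from exon 3 to exon 4 (chr8:105664519-105664955 with the intron left out), from the stretch that matches the 3′ end of the forward primer with which the study genotyped the rescue to the site of the reverse primer. The 5′ end of the forward primer was not found in the transcript. The capitals mark the codons of the cysteines and histidines that hold the zinc ion of ZF1. Both are from the GENCODE M21 transcript Ctcf-201 and so show the normal sequence. The part of ZF1 that was deleted is not marked.
Ctcf start and guide: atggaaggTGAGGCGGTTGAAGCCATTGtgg
Ctcf around ZF1: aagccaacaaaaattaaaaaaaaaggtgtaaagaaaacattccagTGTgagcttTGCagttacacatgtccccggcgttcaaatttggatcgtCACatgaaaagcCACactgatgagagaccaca

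The ESC-ΔZF1 libraries held 13614646 and 14629697 counts on genes and the NPC-ΔZF1 libraries 28730435 and 27077411, so that the NPC values have the smaller counting error. Over all 8 rescue libraries the counts ranged from 6425179 to 28730435. ESC and NPC libraries lay apart on the first principal component, which held 70% of the variance. The log2 values of the 2 replicates differed with an SD of 0.425 in ESC-ΔZF1 and 0.305 in NPC-ΔZF1. The NPC-WT libraries were less alike, with an SD of 0.579, and NPC-WT replicate 2 had the lowest share of mitochondrial counts (0.58%, against 1.25% to 2.06% in the other 7 libraries). Below, values are normalized counts (counts divided by a library size that TMM had adjusted), given for replicates 1 and 2 of ESC-ΔZF1 and then for replicates 1 and 2 of NPC-ΔZF1, and a log2 fold change of NPCs over ESCs is given with its standard error (n = 2 per group). A gene is said to rise or fall where it was up- or down-regulated by the cutoffs given with the counts below, and in each such gene named here both NPC-ΔZF1 values lay on the same side of both ESC-ΔZF1 values.

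Ctcf, which both the tagged gene and the rescue could supply with reads, was at 15168 and 14659.6 in ESCs and 14077 and 13848 in NPCs, with a log2 fold change of -0.10 ± 0.09 and an adjusted p of 0.439 (edgeR). Its counts did not differ between ESCs and NPCs beyond the cutoffs, and they do not show how much endogenous protein was left. Of 13 genes of CTCF, cohesin and their partners, 1 was up-regulated (Stag2, a cohesin subunit, 0.79 ± 0.18) and 1 down-regulated (Patz1, a zinc finger protein found with CTCF, -0.65 ± 0.15). The call of Stag2 was lost without ESC-ΔZF1 replicate 2 (0.74, adjusted p = 0.0502).

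The change from ESC-ΔZF1 to NPC-ΔZF1 reached a large part of the transcriptome. A gene was called dysregulated at an adjusted p no higher than 0.05 (edgeR) with a change of 0.5 or more on the log2 scale, up or down. Such genes numbered 6208 of the 16641 tested (37.3%). Of these 3388 were up-regulated (20.4% of the genes tested) and 2820 down-regulated (16.9%). The log2 fold change was at least 1 in size for 3932 of them and at least 3 for 860, of which 481 rose and 379 fell. The median over all genes tested was 0.02. By chromosome, the median lay between -0.06 and 0.12 on the autosomes and was 0.19 on chromosome X, where 31.5% of 577 genes were up-regulated.

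**Figure D1:**
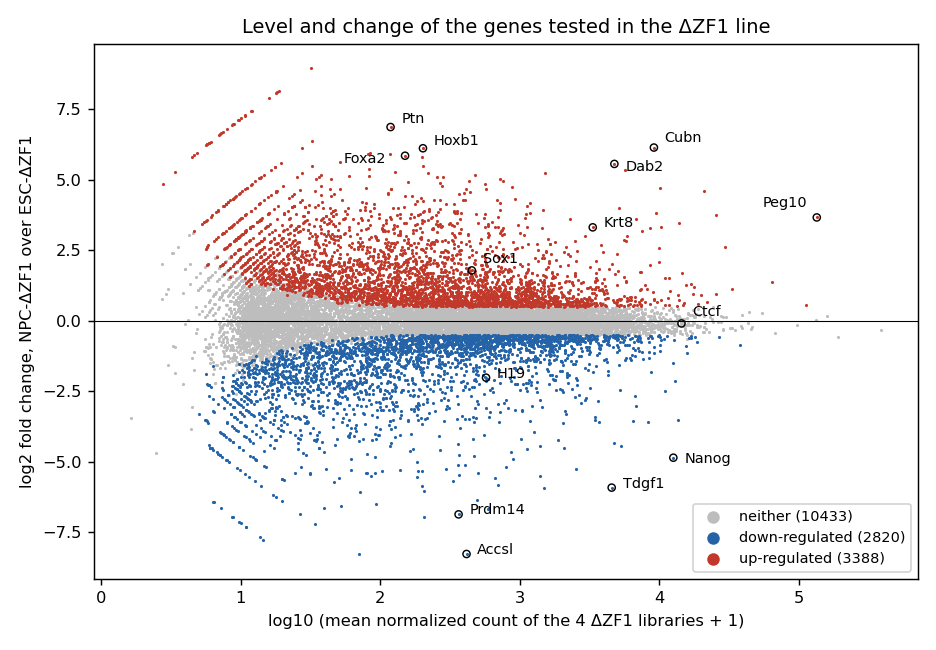
Level and change of the 16641 genes tested. The horizontal axis is log10 of the mean normalized count of the 4 ΔZF1 libraries plus 1, the vertical axis the log2 fold change of NPC-ΔZF1 over ESC-ΔZF1, and each point is a gene. Red points (3388) are up-regulated, blue points (2820) down-regulated and grey points (10433) neither, and circled genes are named in the text. Among genes of high level, Cubn and Dab2 lie far above 0, Nanog and Tdgf1 far below, and Ctcf at -0.10.

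Among genes whose mean reached 100 normalized counts, the largest rises were those of Ptn, Cubn, Hoxb1, Habp2, Foxa2, Tfec, Dab2, Spink1, Amot and Clic5. Cubn, which encodes the endocytic receptor cubilin of absorptive epithelia and visceral endoderm, rose from 154 and 353 to 16932 and 19189, with a log2 fold change of 6.15 ± 0.52. Dab2, an adaptor of endocytosis that works with cubilin, rose from 158 and 235 to 9644 and 9041, with a log2 fold change of 5.57 ± 0.38. For both genes the 2 ESC libraries lay far closer to each other than to either NPC library. Ptn, which encodes the secreted growth factor pleiotrophin, rose from 2.59 and 1.19 to 217 and 249.8. Hoxb1, a homeobox gene of the hindbrain, rose from 3.89 and 7.15 to 397 and 398, and Foxa2, a forkhead factor of endoderm, from 2.59 and 7.15 to 310.2 and 279. The log2 fold changes of the 10 genes lay between 5.29 (Clic5) and 6.88 (Ptn).

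The genes with the largest fall were Accsl, Gm46332, Prdm14, Inhbb, Myo1f, Khdc3, Jam2, Tdgf1, Slc15a1 and H2-M5. Prdm14, a transcriptional regulator of naive cells and the germline, fell from 738 and 704 to 4.97 and 7.14, with a log2 fold change of -6.87 ± 0.39. Tdgf1, which encodes the Nodal co-receptor Cripto, fell from 8875 and 9077 to 146 and 149.9, with a log2 fold change of -5.92 ± 0.47. Inhbb, which encodes a subunit of activin B and inhibin B, fell from 1183 and 1151 to 11.2 and 11, and Khdc3, a gene of the oocyte and early embryo, from 435 and 370.5 to 5.59 and 6.49. The lowest log2 fold change was -8.28 (Accsl, from 808 and 846 to 1.24 and 3.89) and the 10th was -5.83 (H2-M5). In all 10 genes both NPC values were below both ESC values.

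The naive pluripotency network fell. In counts from whole cultures, here and in all that follows, fewer cells of a type and less RNA per cell cannot be told apart. The counts of each list below stand beside 20.4% up-regulated and 16.9% down-regulated over all genes tested. Of 15 naive genes 14 were down-regulated and none up-regulated, with a median log2 fold change of -3.60 against 0.02 over all genes tested. Nanog went from 25005 and 23802 to 829.8 and 851 (log2 fold change -4.86 ± 0.29) and Esrrb, a nuclear receptor of the same network, from 15998 and 14724 to 1328 and 1205 (log2 fold change -3.60 ± 0.20). Klf4 and Klf2, Krüppel-like factors of the naive state, had log2 fold changes of -3.60 ± 0.17 and -4.51 ± 0.19, and Zfp42 (Rex1) of -3.55 ± 0.17. The falls were smaller for Klf5 (-0.87 ± 0.12) and Tbx3 (-0.85 ± 0.10), which were still at 4431 and 4199 (Klf5) and 4102 and 4038 (Tbx3) in NPCs. Dppa3, which marks the earliest naive cells and germ cells, was low in all 4 libraries (31.1 and 33.4 in ESCs and 31.7 and 24 in NPCs) and not dysregulated. The summed level of the 15 genes was 116040 and 109580 normalized counts in ESC-ΔZF1 and 15659 and 15224 in NPC-ΔZF1, 7.31 times lower.

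Of 11 core pluripotency genes, which naive and primed cells share, 7 were down-regulated and 1 up-regulated. Pou5f1 went from 11969 and 11094 to 1849 and 1783 (log2 fold change -2.67 ± 0.24) and Sox2, which neural progenitors also use, from 4165 and 4301 to 833 and 913 (log2 fold change -2.28 ± 0.13). Both remained well above 0 in NPCs. Lin28a, an RNA-binding protein that blocks let-7 maturation, rose from 3658 and 3903 to 16533 and 15788 (log2 fold change 2.10 ± 0.10). Sall4, Utf1 and Zfp281 had log2 fold changes of 0.40 ± 0.12, -0.48 ± 0.13 and -0.12 ± 0.21 and did not pass the cutoffs.

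Genes of LIF signaling fell in part. Of 10 STAT3 targets and LIF pathway genes 5 were down-regulated and none up-regulated (median -1.04). Socs3, the feedback inhibitor that STAT3 induces, fell from 2395 and 2344 to 149 and 156 (log2 fold change -3.96 ± 0.17) and Stat3 itself from 2559 and 2251 to 842 and 802 (log2 fold change -1.55 ± 0.13). Klf4 and Tfcp2l1, which also fell, are in the naive list too. The receptor subunits were not dysregulated, Lifr at -0.13 ± 0.13 and Il6st (gp130) at 0.08 ± 0.12.

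The promoter of Nanog is shown because Pou5f1 and Sox2 are known to bind a composite element in it, of which the octamer core TTTGCAT is the part for Pou5f1. The RefSeq promoter tables (GRCm38.p6, 250 bases before to 50 after a start site) held 10 of the 15 naive genes. In the window chr6:122707315-122707614 (plus strand) the letters TTTGCAT, searched on both strands, are found once, at position -151 from the start site, and are in capitals. They are in 3 of 13 windows of these genes, in Nanog and Zfp42, and in 4.63% of all 32851 promoters.
Nanog promoter: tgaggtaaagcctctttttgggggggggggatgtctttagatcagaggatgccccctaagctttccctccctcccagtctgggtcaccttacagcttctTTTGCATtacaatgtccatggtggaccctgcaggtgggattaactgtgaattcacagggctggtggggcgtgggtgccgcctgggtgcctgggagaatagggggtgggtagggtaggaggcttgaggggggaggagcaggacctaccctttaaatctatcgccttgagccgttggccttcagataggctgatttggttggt

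Genes of the formative and primed epiblast rose in part. Of 10, 6 were up-regulated and 2 down-regulated, with a median of 1.79. Fgf5, a growth factor of the postimplantation epiblast, rose from 0 and 4.76 to 159 and 159 (log2 fold change 5.93 ± 0.47), Otx2, a homeobox factor of the same stage and of the anterior brain, from 24.6 and 31 to 205 and 189 (log2 fold change 2.81 ± 0.23), and Pou3f1 (Oct6) from 94.5 and 78.6 to 499 and 494. The de novo methyltransferase gene Dnmt3b rose from 2690.1 and 2454 to 5446 and 5335, whereas Dnmt3a had a log2 fold change of 0.20 ± 0.14. Zic2 and Zic5, zinc finger factors of the epiblast and neural plate, fell, with log2 fold changes of -0.99 ± 0.13 and -1.19 ± 0.15.

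The label of the NPCs was checked against neural genes. Of a list of 14 neural progenitor genes, 10 passed the filter on low counts. Of these 7 were up-regulated (Sox1, Nes, Pax6, Zic1, Zfp521, Vim and Cdh2) and none down-regulated, with a median of 1.52. Msi1, at -0.49 ± 0.16, was down-regulated with DESeq2 (-0.51, adjusted p = 0.0259) and with edgeR on RLE size factors (-0.51, adjusted p = 0.0261). Without ESC-ΔZF1 replicate 2 it was at -0.61. Sox1, the earliest gene specific to neuroectoderm, rose from 214 and 193 to 691 and 713 (log2 fold change 1.79 ± 0.17), a fold of 3.45. Nes, which encodes the intermediate filament nestin, rose from 383 and 391 to 986 and 937 (log2 fold change 1.31 ± 0.18). Pax6, a paired-box factor of the neural tube and eye, rose from 35 and 32.2 to 61.5 and 72.7 (log2 fold change 1.00 ± 0.35, adjusted p = 0.0423), from a low level in ESCs to one that is still low. Sox3 and Sox21, HMG-box factors of progenitors, had log2 fold changes of 0.39 ± 0.26 and -0.27 ± 0.24. Hes5, Hes3, Fabp7 and Pou3f2, genes of Notch-responsive and radial progenitors, did not pass the filter. Vim and Cdh2 (N-cadherin) rose to 11428 and 10782 and 668 and 666. Both are also made outside the nervous system.

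The summed level of all 14 neural progenitor genes, those below the filter included, was 5095 and 5115 in ESC-ΔZF1 and 14897 and 14248 in NPC-ΔZF1. Of the NPC sums, 11428 and 10782 came from Vim. Of 14 genes of neuronal commitment 8 were tested, 3 were up-regulated and 2 down-regulated, against 20.4% and 16.9% of all genes tested. Gap43, a growth cone protein, rose from 109 and 105 to 729.8 and 777 (log2 fold change 2.82 ± 0.25), as did Map2 (2.12 ± 0.27) and Ina (0.63 ± 0.11). Tubb3 (βIII-tubulin) fell from 1609 and 1564 to 881 and 842 (log2 fold change -0.88 ± 0.12) and Stmn2 from 3628 and 3746 to 1373 and 1359 (log2 fold change -1.43 ± 0.11), so these 2 genes had more counts in ESCs. Neurog1, Neurog2, Neurod4, Nhlh1 and Dcx, which mark neurogenesis, did not pass the filter.

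Regional genes of the brain rose from low levels. Of 15 midbrain and hindbrain genes 11 were tested, 8 were up-regulated and 1 down-regulated, with a median of 2.03. Hoxb1 is given above. Egr2, a zinc finger factor of hindbrain segments, rose from 1.3 and 4.76 to 13.1 and 10.4 (log2 fold change 1.88 ± 0.66), and Irx3, a homeobox gene of the neural tube, from 19.4 and 34.5 to 219 and 274 (log2 fold change 3.17 ± 0.34). En2, a homeobox gene of the midbrain and hindbrain boundary, fell from 229 and 205 to 69 and 71.4 (log2 fold change -1.63 ± 0.21). Of 8 forebrain genes 5 were tested and 2 were up-regulated, Lhx2 (1.21 ± 0.34) and Emx2 (2.56 ± 0.60). Both calls were lost when a library was left out, at the lowest 0.81 for Lhx2 and 2.04 for Emx2, each without ESC-ΔZF1 replicate 1. With DESeq2 the call of Emx2 was lost as well (2.62, adjusted p = 0.0644). Six3, Rax and Six6 did not pass the filter.

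Of 15 spinal and caudal genes 13 were tested, 7 were up-regulated and 4 down-regulated. Cdx2 rose from 20.7 and 29.8 to 344 and 349.7 (log2 fold change 3.77 ± 0.24) while Cdx1, a related caudal factor, fell from 2321 and 2043 to 511 and 451 (log2 fold change -2.18 ± 0.21). Hoxb5 had no count in either ESC library and 12.4 and 18.8 in NPCs, at least 4.19-fold higher when 3 counts per library are taken as the limit that a count of 0 allows. Mnx1 (Hb9), a gene of motor neurons that carries the mCherry reporter in this line, was at 7.77 and 22.6 in ESCs and 14.3 and 11 in NPCs and not dysregulated (-0.28 ± 0.48, adjusted p = 0.674).

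**Figure D2:**
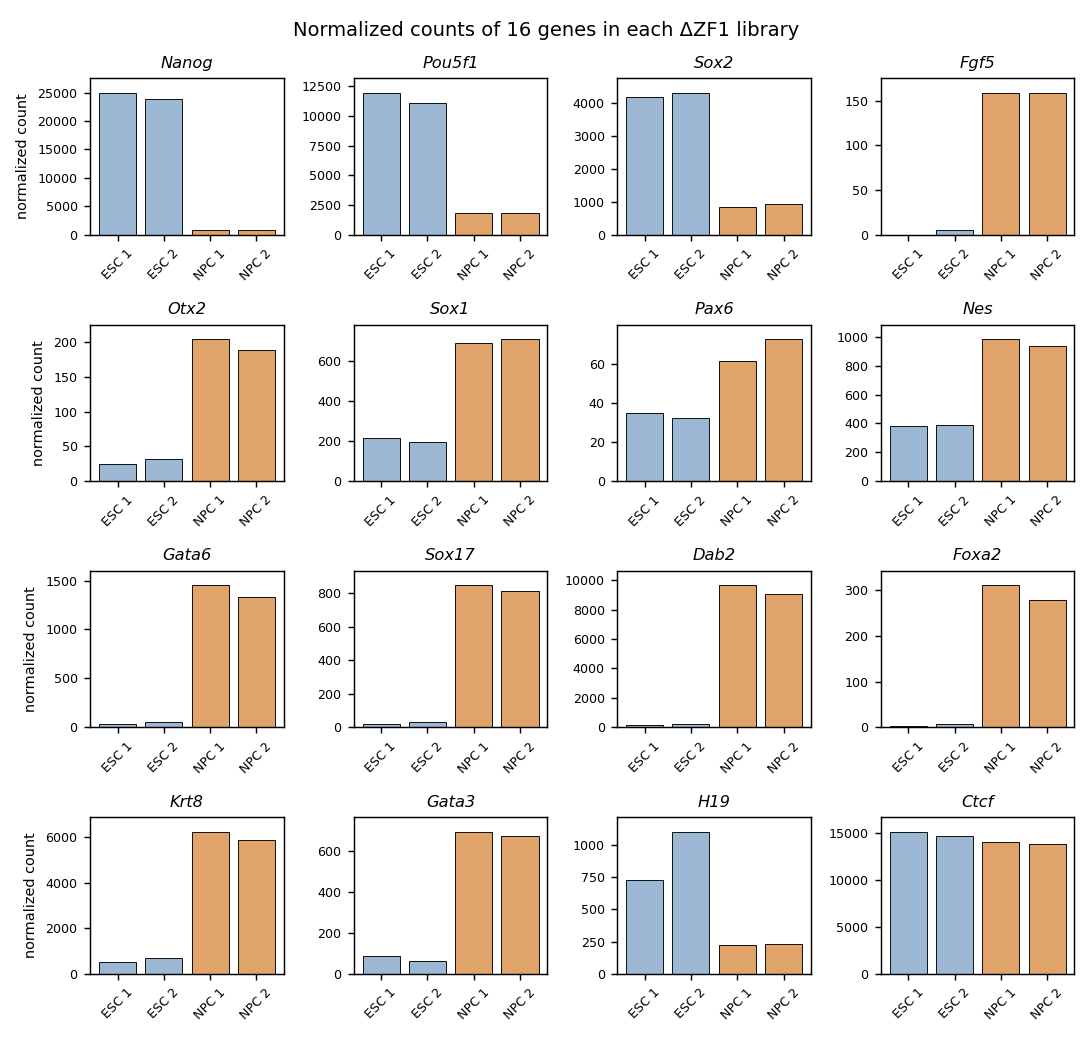
Normalized counts of 16 genes in each of the 4 ΔZF1 libraries. Each panel is a gene, with its own vertical axis from 0, blue bars are the 2 ESC-ΔZF1 libraries and orange bars the 2 NPC-ΔZF1 libraries. Nanog, Pou5f1 and Sox2 are lower in both NPC libraries than in both ESC libraries, the genes from Fgf5 to Gata3 are higher, H19 is lower, and Ctcf is nearly level.

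Of the 35 lists, that with the highest median was extraembryonic endoderm, the lineage that covers the epiblast and lines the yolk sac. All 21 of its markers were tested and all 21 were up-regulated, with a median log2 fold change of 4.20, where 20.4% of all genes were up-regulated. The transcription factors that set up this lineage rose together. Gata6 went from 32.4 and 51.2 to 1451 and 1333 (log2 fold change 5.04 ± 0.24), Gata4 from 55.7 and 95.3 to 1380.0 and 1356 (log2 fold change 4.17 ± 0.25) and Sox17 from 22 and 31 to 848 and 817 (log2 fold change 4.96 ± 0.26). The same holds for Foxa2, given above. In each of these 4 genes the lower NPC library lay far above the higher ESC library.

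Receptors and basement membrane genes of this lineage followed. Pdgfra, the receptor that marks primitive endoderm, rose from 66.1 and 59.6 to 1664 and 1734 (log2 fold change 4.76 ± 0.20). Lrp2 (megalin), the endocytic partner of cubilin, rose from 1642 and 2094 to 17382 and 19949 (log2 fold change 3.32 ± 0.18), and Amn, which anchors cubilin in the membrane, from 16.8 and 14.3 to 95.7 and 107. Lama1 and Lamb1, the laminin chains of the early basement membrane, rose from 2186 and 2416 to 24865 and 25987 and from 1151 and 1334 to 17685 and 17792. Col4a1 and Col4a2, the collagen IV chains that assemble together, rose from 1508 and 1794 to 39894 and 39984 and from 649 and 816 to 19649 and 19083. Genes of the later yolk sac, Ttr and Afp, which encode transport proteins of the blood, reached 162 and 158 and 64 and 77.2. The smallest changes were those of Apoe (0.98 ± 0.18) and Hnf4a (1.00 ± 0.24).

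The summed level of the 21 genes was 13634 and 15117 in ESC-ΔZF1 and 170490 and 174620 in NPC-ΔZF1, 12 times higher. None of the 21 was at 0 in the NPC libraries. Endoderm markers thus moved with the label of NPCs in both replicates, as the neural genes did, and their part in the change of other genes was not tested.

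Col4a1 and Col4a2 lie head to head on chromosome 8, and their promoter is shown because both genes rose by a similar amount (4.60 ± 0.28 and 4.72 ± 0.29). The RefSeq start sites are 21 bases apart, at 11312826 for Col4a1 on the minus strand and at 11312805 for Col4a2 on the plus strand (GRCm38.p6). The window of Col4a2, chr8:11312555-11312854, is printed on the plus strand, with the 78 bases that it shares with the window of Col4a1 in capitals.
Col4a2 promoter: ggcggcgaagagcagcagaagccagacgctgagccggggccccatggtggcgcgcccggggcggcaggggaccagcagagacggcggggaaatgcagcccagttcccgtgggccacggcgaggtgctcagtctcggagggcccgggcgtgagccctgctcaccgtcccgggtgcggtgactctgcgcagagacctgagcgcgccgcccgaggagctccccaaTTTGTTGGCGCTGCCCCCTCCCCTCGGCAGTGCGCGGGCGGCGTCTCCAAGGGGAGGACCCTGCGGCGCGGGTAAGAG

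Gata4 and Gata6 bind GATA motifs, and the promoters of 14 of the 21 genes (22 windows) were in the tables. The letters AGATAA, on either strand, were in a window of Dab2, Foxa2 and Hnf4a, so in 3 of 22 windows, while 11.2% of all 32851 promoters hold them. The windows of Dab2 (chr15:6299539-6299838, plus strand) and Hnf4a (chr2:163506607-163506906, plus strand) are shown as examples, with the motif in capitals. A match is only a description of these letters.
Dab2 promoter: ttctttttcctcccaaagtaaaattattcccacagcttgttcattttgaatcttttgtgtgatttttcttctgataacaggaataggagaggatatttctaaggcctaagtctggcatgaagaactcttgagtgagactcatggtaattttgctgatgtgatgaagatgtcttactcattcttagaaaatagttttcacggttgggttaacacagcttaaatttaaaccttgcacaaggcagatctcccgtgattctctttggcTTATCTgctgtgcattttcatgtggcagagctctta
Hnf4a promoter: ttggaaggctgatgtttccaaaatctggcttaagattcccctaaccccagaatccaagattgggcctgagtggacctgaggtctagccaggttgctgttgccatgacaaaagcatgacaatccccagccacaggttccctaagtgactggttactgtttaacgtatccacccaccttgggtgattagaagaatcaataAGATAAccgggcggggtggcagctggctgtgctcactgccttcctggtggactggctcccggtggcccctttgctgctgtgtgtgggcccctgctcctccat

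**Figure D3:**
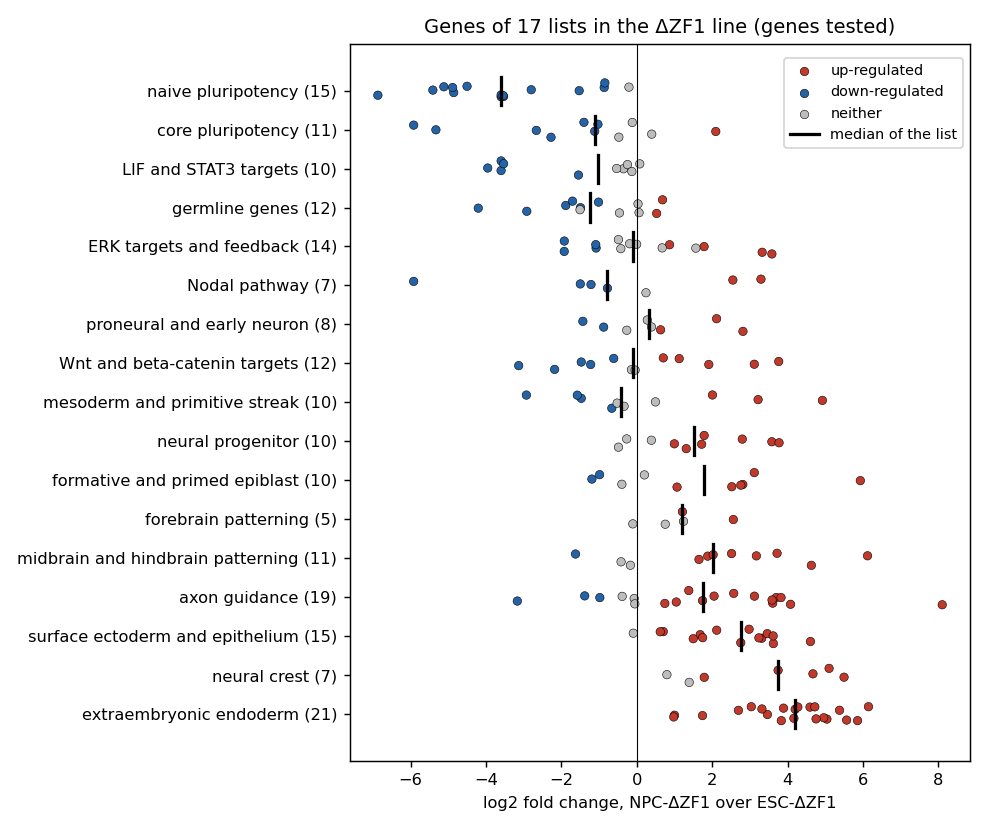
Log2 fold change of NPC-ΔZF1 over ESC-ΔZF1 (horizontal axis) for the tested genes of 17 lists (vertical axis, with the number of genes tested). Each point is a gene, red if up-regulated, blue if down-regulated and grey if neither, and the black bar is the median of the list. All points of the naive list lie below 0, all 21 points of the extraembryonic endoderm list lie above 0, and so do the 7 points of the neural crest list.

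Epithelial genes of the surface ectoderm rose as well. Of 15 markers 14 were up-regulated and none down-regulated (median 2.76). The simple keratins Krt8 and Krt18, which extraembryonic endoderm and trophoblast make too, rose from 506 and 709.9 to 6253 and 5876 (log2 fold change 3.32 ± 0.28) and from 791 and 1240.0 to 12842 and 12225 (log2 fold change 3.62 ± 0.35). Gata3 rose from 85.5 and 59.6 to 693 and 673 (log2 fold change 3.24 ± 0.19), Grhl2, a factor of epithelial junctions, from 46.6 and 40.5 to 355 and 333 (log2 fold change 2.98 ± 0.17), and Dlx3, a homeobox gene of epidermis and placenta, from 38.9 and 56 to 344 and 302 (log2 fold change 2.76 ± 0.24). Trp63, the defining factor of stratified epithelium, rose from a low level to one that was still low, from 5.18 and 7.15 to 23 and 31.8. Cdh1 (E-cadherin) was at 11935 and 11235 in ESCs and 11150.3 and 10572 in NPCs and was not dysregulated (-0.09 ± 0.09). The summed level of the 15 genes was 15796 and 15747 in ESC-ΔZF1 and 37979 and 36259 in NPC-ΔZF1.

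Other lineages were represented by some of their genes. Their counts, here and in the next paragraph, stand beside 20.4% up-regulated and 16.9% down-regulated over all genes tested. Of 9 trophoblast genes 8 were tested, 6 were up-regulated and 1 down-regulated (median 2.36). Eomes, which trophoblast and streak share, fell from 379 and 426 to 263 and 246 (log2 fold change -0.66 ± 0.14), a call that was lost without NPC-ΔZF1 replicate 2 (-0.61, adjusted p = 0.0612), and Ascl2 rose from 44 and 46.5 to 485 and 485. Of 9 neural crest genes 7 were tested and 5 were up-regulated (median 3.75), among them Pax3 (from 0 and 2.38 to 60.9 and 62.3) and Msx1 (from 15.5 and 13.1 to 461 and 529), and the crest-defining Sox10 was at 6.48 and 8.34 in ESCs and 18 and 21.4 in NPCs and not dysregulated. Of 12 genes of mesoderm and primitive streak 10 were tested, 3 were up-regulated and 4 down-regulated (median -0.43). The number down-regulated was 2 without ESC-ΔZF1 replicate 1 and 1 without NPC-ΔZF1 replicate 2. T and Mixl1, which define the streak, had few counts (22 and 19.1 in ESCs and 7.46 and 7.14 in NPCs for T and 33.7 and 23.8 in ESCs and 11.8 and 7.14 in NPCs for Mixl1). The call of T was lost whichever ΔZF1 library was left out (log2 fold change -1.62 to -1.38) and with DESeq2 (-1.51, adjusted p = 0.0885). That of Mixl1 was lost without ESC-ΔZF1 replicate 1 (-1.33) or NPC-ΔZF1 replicate 2 (-1.26). Meox1, of the somites, rose from 10.4 and 9.53 to 305 and 306.

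Of 10 genes of fibroblasts and endothelium 6 were tested, 4 were up-regulated and 1 down-regulated. Collagen I and III genes rose from low levels, Col1a1 from 69.9 and 65.5 to 252 and 214 and Col1a2 from 16.8 and 26.2 to 238 and 219. Pecam1, an adhesion molecule of endothelium that naive ESCs also make, fell from 2236 and 2141 to 183 and 187 (log2 fold change -3.56 ± 0.18). Of 12 germline genes, several of which ESCs transcribe, 6 were down-regulated and 2 up-regulated (median -1.26). The number up-regulated was 0 without ESC-ΔZF1 replicate 1 or NPC-ΔZF1 replicate 1, and 1 without either of the others. Dazl, an RNA-binding protein of germ cells, fell from 565 and 538 to 169 and 129 (log2 fold change -1.89 ± 0.16). Ddx4 rose from 496 and 529 to 847 and 799 (0.68 ± 0.17). The call of Ddx4 was lost without either ESC-ΔZF1 library (0.62 and 0.69) or without NPC-ΔZF1 replicate 1 (0.64).

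Signaling genes moved in both directions. Over all genes tested, 20.4% were up-regulated and 16.9% down-regulated, the shares to set beside the counts of this and the following lists. Nodal, a TGFβ ligand of pluripotent cells, fell from 1093 and 999 to 591 and 628 (log2 fold change -0.78 ± 0.15), and of 7 tested genes of its pathway 4 were down-regulated and 2 up-regulated. Lefty1, the secreted inhibitor of Nodal, rose from 194 and 244 to 1262 and 1308 (log2 fold change 2.55 ± 0.18). Lefty2, the paralog of Lefty1, fell from 741 and 753 to 320.1 and 323 (log2 fold change -1.22 ± 0.20), so the 2 inhibitor genes changed in opposite directions. Their sequences are related, and reads that could fit either gene were assigned by the counting of the authors.

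Of 14 ERK targets, which the MEK inhibitor holds down in ESCs, 4 were up-regulated and 4 down-regulated (median -0.10). Egr1, an immediate early gene, rose from 13 and 11.9 to 161 and 139 (log2 fold change 3.58 ± 0.25), and the ERK phosphatase genes Dusp4 and Dusp6 from 108 and 96.5 to 984 and 1063 (log2 fold change 3.33 ± 0.23) and from 493 and 530.1 to 1769 and 1760.0 (log2 fold change 1.79 ± 0.15). Etv4 and Etv5, ETS factors that FGF induces, fell, with log2 fold changes of -1.92 ± 0.14 and -1.93 ± 0.14. Fgf4, the FGF that ESCs make, fell from 3514 and 3598 to 173 and 207 (log2 fold change -4.22 ± 0.26), and of 10 FGF ligands and receptors 6 were up-regulated and 3 down-regulated. Fgfr2, a receptor of epithelia, rose from 139.9 and 176 to 2034 and 1981 (log2 fold change 3.66 ± 0.17).

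Of 12 Wnt targets 5 were up-regulated and 5 down-regulated, but the number up-regulated was 2 without either ESC-ΔZF1 library or without NPC-ΔZF1 replicate 2, and 3 without NPC-ΔZF1 replicate 1. Lef1 and Cdx2 rose (3.12 ± 0.20 and 3.77 ± 0.24), Sp5 and Notum, direct targets, fell (-1.22 ± 0.21 and -3.13 ± 0.25), and Axin2, the general feedback target, was at 787 and 693 in ESCs and 681 and 660.4 in NPCs and not dysregulated. In the BMP group, 5 of 13 genes rose and 2 fell. The Id genes, which BMP induces, include Id2, which rose from 73.8 and 100.1 to 1832 and 1689.9 (log2 fold change 4.33 ± 0.32), Id1 (2.38 ± 0.27) and Id3 (1.77 ± 0.23). Bmp2 rose from 3.89 and 9.53 to 93.2 and 115 while Bmp4 fell from 346 and 309.7 to 86.4 and 65.5, and Smad7, the inhibitory Smad, fell from 4284 and 4031 to 963 and 963 (log2 fold change -2.11 ± 0.14).

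Of 13 Notch genes 5 were up-regulated and 4 down-regulated. Among the 4, 1 lost its call whichever ΔZF1 library was left out (log2 fold change -0.64 to -0.50). The ligand gene Dll1 rose from 22 and 16.7 to 172 and 199.8 (log2 fold change 3.26 ± 0.31), and Hes1, a target that ESCs already express, fell from 1080.2 and 1001 to 441 and 394 (log2 fold change -1.32 ± 0.12). Of 9 Hedgehog genes 5 rose and 3 fell, with Gli3, which acts mainly as a repressor, at 2.15 ± 0.14 and Gli2 at -2.22 ± 0.16. Of 13 retinoic acid genes 6 rose and 3 fell. Cyp26a1, the enzyme that clears retinoic acid, rose from 2.59 and 3.57 to 125 and 103 (log2 fold change 5.15 ± 0.37) and Rarg, a retinoic acid receptor, fell from 2242 and 2074 to 863 and 804 (log2 fold change -1.37 ± 0.13).

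Adhesion and guidance genes rose more often than they fell. Of 12 cadherins, integrins and laminin receptors 7 were up-regulated and none down-regulated, among them Cdh2 (from 71.2 and 119 to 668 and 666), Itga3 (from 1948 and 1898 to 6967 and 6760.4) and Itgb1 (from 5275 and 4999 to 11303 and 10919), whose products bind laminin as a pair. Of 19 tested axon guidance genes 13 were up-regulated and 3 down-regulated (median 1.74). Efnb2 and Efnb1, membrane ligands of Eph receptors, rose from 135 and 174 to 2198 and 2197 and from 144 and 154 to 1358 and 1235. Ntn1 (netrin-1) fell from 1719 and 1583 to 198 and 169 (log2 fold change -3.17 ± 0.19). Robo2, a Slit receptor, had no count in ESCs and 33.6 and 35 in NPCs, at least 9.20-fold higher by the same limit.

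Of 8 enzymes of DNA methylation 3 were up-regulated and 3 down-regulated. Dnmt3l, the cofactor of the de novo enzymes, rose from 1647 and 1606 to 5845 and 5818 (log2 fold change 1.84 ± 0.15), and Tet1 and Tet2, which oxidize methylcytosine, fell from 18278 and 19367 to 3279.6 and 3416 (log2 fold change -2.49 ± 0.12) and from 6369.8 and 6497 to 913 and 884 (log2 fold change -2.84 ± 0.11). Dnmt1, which copies methylation after replication, was not dysregulated (-0.23 ± 0.13). Of 11 G1 cyclins and inhibitors 3 rose and 1 fell, and the fall, of Ccnd3, was lost without either NPC-ΔZF1 library (adjusted p = 0.0519 and 0.0595). Without ESC-ΔZF1 replicate 2 the number that fell was 2. Ccnd2 rose from 232 and 297 to 2605 and 2643 (log2 fold change 3.31 ± 0.17) and Cdkn1c, an imprinted cell cycle inhibitor, from 33.7 and 53.6 to 421 and 430.1 (log2 fold change 3.27 ± 0.23). Of 15 p53 targets 7 rose and none fell (median 0.63), 1 falling without ESC-ΔZF1 replicate 2, with Perp at 1.42 ± 0.19 and Mdm2 at 0.63 ± 0.10, whereas Cdkn1a (p21) did not pass the cutoffs (-0.43 ± 0.11).

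Of 16 glycolytic genes 3 were up-regulated and 6 down-regulated (median -0.30). The glucose transporter genes Slc2a3 and Slc2a1 rose from 35557 and 35081 to 94843 and 90233 (log2 fold change 1.39 ± 0.10) and from 6122 and 6014 to 17852 and 16953 (log2 fold change 1.52 ± 0.11). Of the enzymes, Pfkl rose (0.69 ± 0.17), 6 fell and 7 did not pass the cutoffs. Those that fell include Hk2 from 13097 and 11993 to 5725 and 5688 (log2 fold change -1.14 ± 0.13), Pfkp from 4325 and 4372 to 664 and 666 (log2 fold change -2.71 ± 0.18) and Ldha from 9113 and 8796 to 4328 and 4391 (log2 fold change -1.04 ± 0.13). Of 17 genes of cholesterol synthesis 3 rose and none fell, with Sc5d the highest (0.98 ± 0.23), a call that was lost without ESC-ΔZF1 replicate 2 (0.94, adjusted p = 0.052). The number that rose was 1 without either ESC-ΔZF1 library. None of 7 tested mitochondrially encoded genes was dysregulated. Their sign depended on the library in 2 genes, mt-Nd1 and mt-Nd2, which were at -0.23 and -0.14 without ESC-ΔZF1 replicate 1 and at 0.05 and 0.14 with it.

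Imprinted genes, of which only the maternal or the paternal copy is transcribed, rose as a group. Of 20, 15 were up-regulated and 2 down-regulated (median 1.13). Peg10 and Peg3, expressed from the paternal copy, rose from 16678 and 22614 to 257191 and 242149 (log2 fold change 3.67 ± 0.27) and from 3182 and 3870.1 to 47901 and 47703 (log2 fold change 3.76 ± 0.21). Grb10, an adaptor that limits growth factor signaling, rose from 1544 and 1640.2 to 8272 and 8341 (log2 fold change 2.38 ± 0.10). Igf2, a growth factor, rose from 111 and 135 to 2368 and 2123 (log2 fold change 4.19 ± 0.26). Podxl, which encodes a cell surface sialomucin and is a gene that the study followed, is not imprinted and rose from 566 and 653 to 10004 and 9408 (log2 fold change 3.99 ± 0.19).

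H19, a long noncoding RNA transcribed from the maternal copy next to Igf2 (chr7:142575529-142578143, GRCm38), fell from 730.5 and 1107 to 222 and 232 (log2 fold change -2.02 ± 0.30, adjusted p = 0.00043). CTCF is known to bind the imprinting control region between Igf2 and H19 on the maternal copy. H19 and Igf2 thus changed in opposite directions in the ΔZF1 line. Igf2 rose in the WT line too, with a log2 fold change of 5.57 against 4.19 in the ΔZF1 line. The difference in the change of Igf2 did not pass the cutoffs (-1.39, edgeR, adjusted p = 0.0838). In the WT line H19 rose, from 1628 and 795 to 39565 and 46842, and in parental E14 cells it was at 0.604 ± 1.05 normalized counts in ESCs and 388 ± 90.3 in NPCs (mean ± SD, n = 3). The difference in the change of H19 between the lines was -7.20 ± 0.44 (edgeR, adjusted p = 0.000101), and it was called in 13 of 13 alternative fits, between -7.80 and -6.77. The ESC libraries of both lines overlapped in H19 and the NPC libraries did not. Each line is 1 clone, so a difference between CTCF-ΔZF1 and CTCF-WT and a difference between clones cannot be told apart.

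To see which of these changes differ between the rescue lines, the WT line was set beside the ΔZF1 line. Ctcf was at 9914 and 10179 in ESC-WT and 8368 and 7913 in NPC-WT, below the ΔZF1 libraries of the same cell type. Its change did not differ between the lines by the cutoffs (0.21 ± 0.13, edgeR, adjusted p = 0.422). By Western blot the study reported similar levels of tagged rescue protein in both lines. Whether the level of Ctcf bears on the differences, H19 included, was not tested. In the WT line 6980 genes were dysregulated (41.9%), 3661 up (22%) and 3319 down (19.9%). Of the genes up-regulated in the ΔZF1 line 2505 were also up-regulated in the WT line (73.9% of the first list and 68.4% of the second), and of those down-regulated 2078 were (73.7% and 62.6%). The 2 comparisons share no library. In opposite directions, 19 genes rose in the ΔZF1 line and fell in the WT line, and 12 did the reverse. In parental E14 cells, which were sequenced and normalized separately, 4351 of 13268 genes were dysregulated (32.8%), 2186 up (16.5%) and 2165 down (16.3%).

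A change that differed between the lines by the cutoffs was found for 449 genes (2.7%), higher in the ΔZF1 line for 264 (1.59%) and lower for 185 (1.11%). DESeq2 called 318 higher and 362 lower, and edgeR without a filter on low counts 538 and 601, so the split changed with the method. The number also depends on single libraries. It was 54 without ESC-ΔZF1 replicate 1, 66 without either NPC-ΔZF1 library, 87 without ESC-ΔZF1 replicate 2, 78 and 63 without ESC-WT replicate 1 or 2, 1666 without NPC-WT replicate 2 and 4673 without NPC-WT replicate 1. The cause was not tested. Of the genes named next, Gata4, Gata6, Cldn4, Lefty1, Dpp4 and Dazl had a difference that was called in all 13 alternatives.

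**Figure D4:**
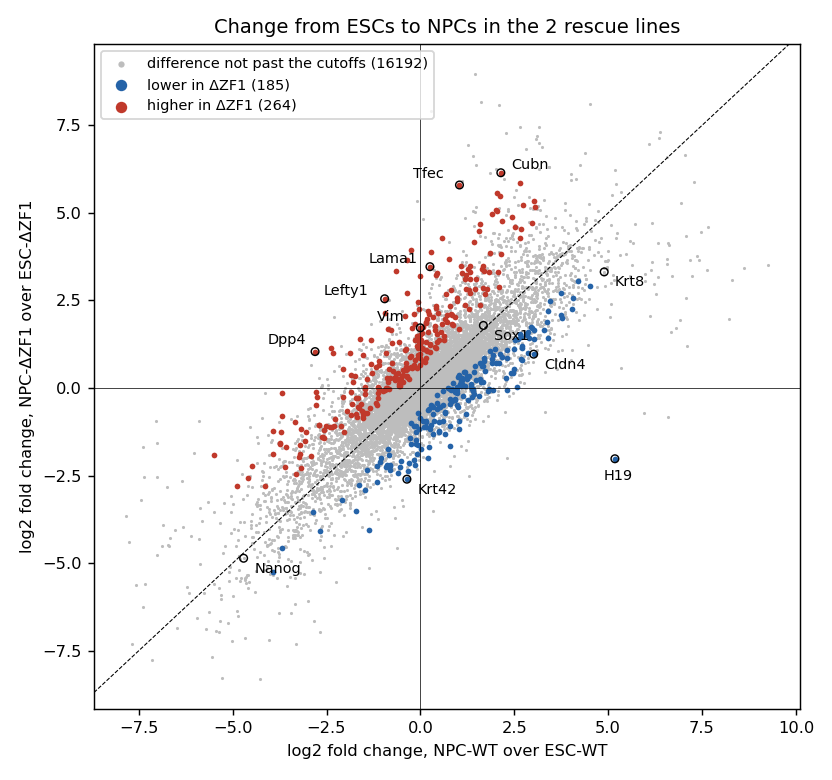
Change from ESCs to NPCs in the WT line (horizontal axis) and in the ΔZF1 line (vertical axis), both as log2 fold changes, for 16641 genes. Each point is a gene, red where the change is higher in the ΔZF1 line (264), blue where it is lower (185) and grey where the difference did not pass the cutoffs, and the dashed line marks equal change. H19 lies alone at the lower right, and endoderm genes such as Cubn and Lama1 lie above the line.

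Of the 35 lists, that of extraembryonic endoderm held the highest share of genes with a higher change in the ΔZF1 line. Of its 21 markers 13 changed more in the ΔZF1 line and none less, where 1.59% of all genes were higher. Gata6 went from 51.2 and 32.2 to 141 and 183 in the WT line (difference 3.00 ± 0.39, adjusted p = 0.00572) and Gata4 from 121 and 74.8 to 230.2 and 274 (difference 2.73 ± 0.36, adjusted p = 0.00648). The summed level of the 21 genes was 16473 and 12995 in ESC-WT and 50958 and 62155 in NPC-WT, so both NPC-ΔZF1 sums, 170490 and 174620, lay above both NPC-WT sums, while the ESC sums of the lines overlapped. In the WT line 15 of the 21 were up-regulated and 1, Hnf4a, down-regulated (median 2.04). In parental E14 cells 17 of 19 tested were up-regulated (median 3.18), with Gata6 at 4.98 and Dab2 at 5.83. The difference was lost for Cubn without ESC-ΔZF1 replicate 1 or either NPC-ΔZF1 library and for Dab2 without ESC-ΔZF1 replicate 1. The lowest values over the alternatives were 2.98 and 2.76.

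**Figure D5:**
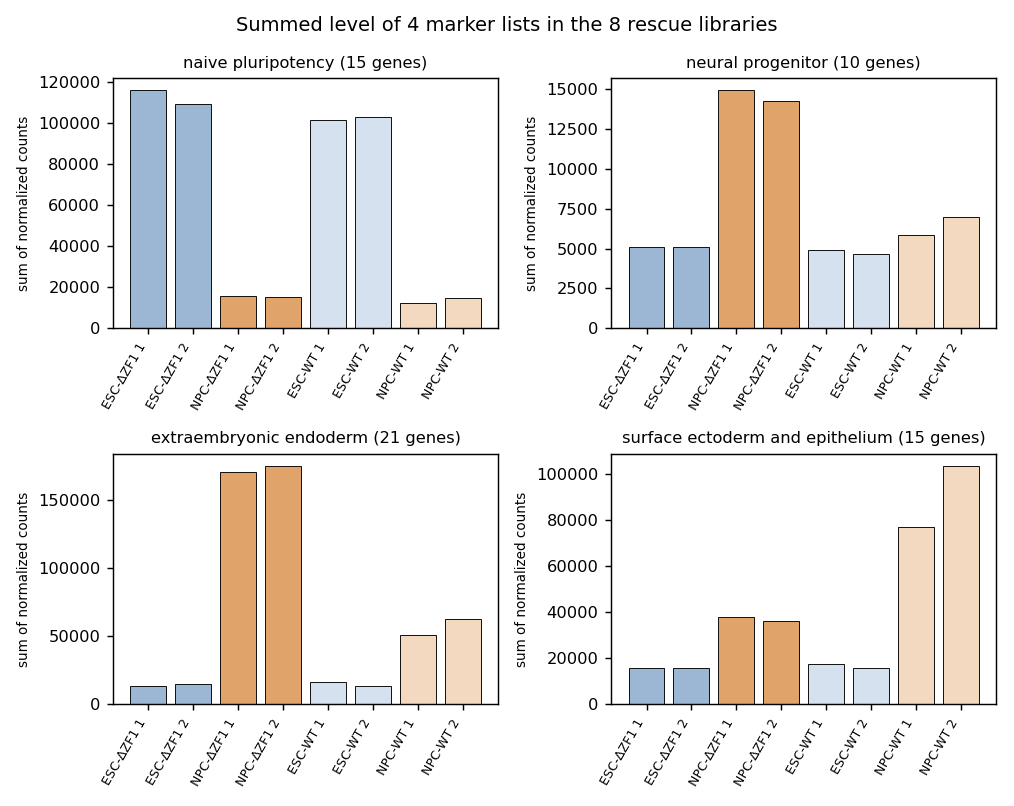
Summed normalized counts of 4 marker lists in each of the 8 rescue libraries. The sums hold all genes of a list, also those below the filter on low counts, while the panel titles count the genes tested. Blue bars are ESC and orange bars NPC libraries, dark for the ΔZF1 line and light for the WT line. The naive list falls in both lines, the extraembryonic endoderm list is highest in NPC-ΔZF1 (170490 and 174620) and the surface ectoderm list is highest in NPC-WT (77121 and 103560). Much of the surface ectoderm sum in NPCs comes from Krt8 and Krt18.

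The surface ectoderm list showed the opposite order in its sum, with 77121 and 103560 in NPC-WT against 37979 and 36259 in NPC-ΔZF1. Much of these sums came from Krt18 and Krt8, at 12842 and 12225 (Krt18) and 6253 and 5876 (Krt8) in NPC-ΔZF1. Krt18 went from 1658 and 785 to 29519 and 45491 in the WT line and Krt8 from 914 and 512 to 17056 and 24448, and for both the difference between the lines did not pass the cutoffs (adjusted p = 0.164 and 0.0558). Of the 15 genes 3 changed less in the ΔZF1 line (Grhl3, Msx2 and Cdh1), against 1.11% of all genes. The difference of Cdh1 was called in 7 of 13 alternatives, and those of Grhl3 and Msx2 were not read out under the alternatives. Cldn4, a tight junction gene, rose in both lines and less in the ΔZF1 line (from 690.3 and 631 to 1336 and 1249, against from 439 and 334 to 2578 and 3588 in the WT line, difference -2.05 ± 0.25). In parental E14 cells 4 of 12 tested genes of the surface ectoderm list were up-regulated and 2 down-regulated (median 0.15), with Krt8 at 0.26.

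Among the neural progenitor genes 1 of 10 changed differently in the lines by these cutoffs. Sox1 had a difference of 0.11 ± 0.25 (adjusted p = 0.853), and its log2 fold change was 1.68 in the WT line and 4.01 in parental E14 cells. The gene that passed was Vim (difference 1.72 ± 0.15, edgeR, adjusted p = 0.000776), whose difference was not read out under the alternatives. Vim was at 3323 and 3415 in ESCs and 11428 and 10782 in NPCs in the ΔZF1 line. In the WT line it was at 3289 and 2885 in ESCs and 2921 and 3237 in NPCs. The naive list had 1 gene with a higher and 1 with a lower change, and its median was -3.60 in both lines. Nanog had a difference of -0.15 ± 0.35 (adjusted p = 0.853).

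Genes that moved in opposite directions include Lefty1, which rose in the ΔZF1 line and in the WT line went from 162 and 222 to 89.7 and 118 (difference 3.50 ± 0.28, adjusted p = 0.000401), and Dpp4, which encodes a cell surface peptidase and rose from 692 and 709 to 1456 and 1426 in the ΔZF1 line and fell from 685 and 827 to 124 and 87.9 in the WT line (difference 3.85 ± 0.23, adjusted p = 0.000101). In parental E14 cells Lefty1 was at 2.54 and Dpp4 at -1.06. Dazl fell in both lines and further in the WT line, from 628 and 614 to 36.6 and 47 (difference 2.04 ± 0.26). Grb10 rose more in the ΔZF1 line (difference 0.80 ± 0.14), but this call was lost when any ESC library or either NPC-ΔZF1 library was left out (0.74 to 0.81 over the alternatives).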

How the data were processed

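Total RNA depleted of ribosomal RNA was sequenced from 8 rescue libraries and from 18 libraries of another table. The deposited values are raw counts per gene. The authors mapped reads with STAR to mm10 and counted them without strand with featureCounts, so a gene and an antisense or overlapping partner, or near-identical paralogs, cannot be fully told apart. The annotation behind the counts is not given in the sources used here, and 3 count columns of the second table that match no sample were not used. Coordinates are from GENCODE M21, in which 96.4% of the gene symbols were found.

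Counts of all 8 rescue libraries were fitted in edgeR 4.0.16 (R 4.3.3) with TMM normalization, the filterByExpr filter on low counts, 1 term per group and the quasi-likelihood test. P-values were adjusted by Benjamini-Hochberg over all genes tested, two-sided, with cutoffs of 0.05 and of 0.5 on the log2 scale as in the study, which used DESeq2. The standard error is the log2 fold change divided by the root of the F value. The contrasts were NPC-ΔZF1 against ESC-ΔZF1, the same in the WT line, and the difference of both. Parental E14 libraries were fitted with their own table and are only set beside the others. The test was also tried on counts simulated from the fitted means and dispersions, with known changes in the ΔZF1 line. By the same cutoffs it found 86.5% of the changed genes, and 8.47% of its calls were false. Limits that a count of 0 allows take 3 counts per library and cover counting error only. The labels do not say that replicates come from separate cultures, so p-values measure the spread between these samples.

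Genes were named by rule: the genes the study followed, the 10 largest rises and falls and the 4 highest and 4 lowest differences among genes whose mean reached 100 normalized counts and whose groups were apart, and of each list the first 2 tested and both extremes. Further members were named for their role after their values were seen. The lists and genes were chosen with earlier results of these data known. Alternatives were DESeq2 1.42.0, RLE size factors, no filter or at least 10 counts in every library, the 4 libraries alone, a replicate block, stricter cutoffs, and leaving out each library in turn. A few members of the lists are counted but not reported singly here.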

Additional observations from a re-analysis of the deposited data

Results flagged for a closer look

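For the genes below, the change from ESCs to NPCs differed between the ΔZF1 and the WT line by the edgeR test of the difference itself (adjusted p of at most 0.05 and a size of at least 0.5 on the log2 scale). Differences are given as the log2 fold change in the ΔZF1 line minus that in the WT line. Each line is 1 clone.

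Among extraembryonic endoderm markers, the change was higher in the ΔZF1 line for Cubn (4.01), Foxa2 (3.21), Dab2 (3.53), Gata4 (2.73) and Gata6 (3.00). Genes of no list with a higher change were Amot (2.33), Tfec (4.76), Spink1 (3.38) and Dpp4 (3.85). The differences of Foxa2 and Spink1 were called in 5 of 12 alternatives, and those of Gata4, Gata6 and Dpp4 in all 13.

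Genes of pluripotency and its signals with a higher change were Sox2 (0.90), Nodal (1.07), Lefty1 (3.50), Dusp4 (1.497), Etv5 (0.98), Ccnd1 (0.75) and Dazl (2.04). Smad7 had a lower change (-1.03). Of these, Lefty1 and Dazl were called in all 13 alternatives. Sox2, Etv5 and Smad7 were called in 7, Nodal and Ccnd1 in 6 and Dusp4 in 5. Each of the latter lost its call when any ESC library or either NPC-ΔZF1 library was left out. Sox2, Nodal, Etv5 and Dazl fell in both lines, and less in the ΔZF1 line (Sox2 -2.28 against -3.18).

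Genes of the nervous system with a higher change were Hesx1 (2.68), En2 (1.58) and Stmn2 (1.12), called in 6 of 12, 7 of 13 and 7 of 13 alternatives. En2 and Stmn2 fell in both lines, and less in the ΔZF1 line. Hesx1 fell in the WT line (-2.79) and was not dysregulated in the ΔZF1 line (-0.11 ± 0.31). Grb10, an imprinted gene, also had a higher change (0.80). H19 had the lowest of all (-7.20).

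Epithelial genes with a lower change in the ΔZF1 line were Cldn4 (-2.05), Krt42 (-2.24), Cdh1 (-0.70) and Itga6 (-0.65). Myl9, a myosin light chain gene, was lower as well (-2.03). Cldn4 was called in all 13 alternatives, Myl9 in 12, Krt42 in 10, Cdh1 in 7 and Itga6 in 6.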

How the results depend on the processing

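The change from ESC-ΔZF1 to NPC-ΔZF1 held 6208 dysregulated genes, 5556 with DESeq2 (2899 up and 2657 down), 6248 with RLE size factors, 6912 without a filter, 4500 with at least 10 counts in every library, 6986 from the 4 libraries alone, and 4761 to 5000 with a library left out. A log2 cutoff of 1 left 3932 (2220 up and 1712 down) and, in the WT line, 4173. For parental E14 cells it left 2433, and the count minimum 2683. The difference between the lines was the least stable. Its 449 genes (58.8% higher) became 74 at an adjusted p of 0.01, 680 with DESeq2 (46.8% higher), 1139 without a filter (47.2% higher), and 54 to 4673 with a library left out. The cause was not tested.

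Of 1344 values of 138 named genes under the alternatives, 1301 kept their call, 28 lost it, 7 gained it and 8 changed sign, all without a call. The values of these 6 genes with a library left out ran from -0.14 to 0.0318 for Srebf2 (0.0084 without a filter), from -0.35 to 0.21 for Aldh1a2, from -0.23 to 0.34 for mt-Nd1, from -0.14 to 0.43 for mt-Nd2, from -0.84 to 0.66 for Mnx1 and from -0.21 to 0.0045 for Hesx1.

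Deviations of libraries with the same replicate number had a correlation of 0.132 in the ΔZF1 line and 0.0102 in the WT line, which does not show that the numbers pair the samples. With the replicate number as a block, 6125 genes were called in the ΔZF1 line (3336 up and 2789 down) and 322 for the difference (187 higher and 135 lower). The ESC-ΔZF1 libraries had the lower depth of the ΔZF1 line, which limits the precision of genes that are low in ESCs.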

Other observations

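Some gene families that no list held were counted after their values had been seen. Over all genes tested, 20.4% were up-regulated and 16.9% down-regulated in the ΔZF1 line. Of 31 tested Hox genes 17 were up-regulated and 5 down-regulated from ESC-ΔZF1 to NPC-ΔZF1, and the clusters differed in their counts. In the Hoxb cluster 9 of 10 genes rose and none fell, with a median log2 fold change of 4.40, and Hoxb13, at the 5′ end, was at 15.5 and 11.9 in ESCs and 11.2 and 9.73 in NPCs and not dysregulated. Hoxb2 rose from 2.59 and 1.19 to 50.3 and 48. In the Hoxa cluster 4 of 10 rose, Hoxa5 among them, and 3 fell, with Hoxa9 from 105 and 131 to 40.4 and 35.7. In the WT line 5 genes of the Hoxb cluster and 6 of the Hoxa cluster rose and none fell. The difference between the lines passed the cutoffs for Hoxa3 alone of the 31 genes.

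Of 16 tested Wnt ligand genes 12 rose and 2 fell (median 3.31), with Wnt8a from 19.4 and 19.1 to 517 and 555 and Wnt4 from 22 and 28.6 to 323 and 326. Of 33 collagen genes 24 rose and 2 fell (median 2.17), and the 2 whose change differed between the lines were Col4a1 and Col4a2. Of 10 cathepsin genes, which encode lysosomal proteases, 5 rose and none fell, with Ctsl from 2346 and 2212 to 7894 and 7804. The difference between the lines was higher for Ctsl and Ctsc. Of 84 ribosomal protein genes none rose and 7 fell in the ΔZF1 line (median -0.27), and 34 fell in the WT line.

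Genes of the 2-cell stage, which a few ESCs express at a time, were lower in NPCs. Of 16 tested (Zscan4, Usp17l and Tcstv members and Zfp352) 11 fell and none rose, with a median of -1.53, against 16 that fell in the WT line (median -3.17). Zscan4d went from 278 and 318 to 142 and 109.6. These genes are near-identical copies, so the counts of single members are uncertain.

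By annotated type, 32.18% of 348 lincRNA genes were down-regulated and 11.78% up-regulated, against 17.08% and 22.75% of 13883 protein-coding genes.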
